A study of Mus musculus with 6 samples.

Results

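The genes described here encode cadherins and components of the desmosome, the junction that anchors keratin filaments at the plasma membrane. They are Cdh1 and Cdh3 (E- and P-cadherin), Dsg2 and Dsg3 (desmogleins), Dsc2 and Dsc3 (desmocollins), Jup (plakoglobin), Pkp1 and Pkp3 (plakophilins) and Dsp (desmoplakin). They were chosen by name, as every gene row whose name equals a member or whose joined name holds it, which gave 10 of 23698 rows, with 0 of them in a joined row. The study compared mouse squamous cell carcinoma cells with wild-type keratinocytes, and the libraries analysed here cover the carcinoma cells (SCCc) alone. SCCc is a cell line with the genotype HrasG12V; Tgfbr2 fl/fl KO, derived from primary keratinocytes of P0 back skin and used between passage 10 and passage 15. Per the study's methods it was grown in medium low in calcium, the ion that cadherins need for adhesion. The data are 1 ribosome profiling library (Ribo-seq) and 2 RNA-seq libraries, and libraries of wild-type cells were not analysed here, so no value below is a change against wild-type cells. The exon counts summed to 3549555 in Ribo-seq, 10707930 in the first RNA-seq replicate and 14003713 in the second, and 3198469 of the footprints lay on coding sequence (CDS). The labels do not say whether the RNA-seq replicates came from separate cultures, so their spread may be technical, and further Ribo-seq libraries of SCCc that the study's methods name were not analysed here, so footprints have no replicate below.

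Classical cadherins join neighbouring keratinocytes at adherens junctions, where their tails bind catenins that connect to actin. Desmosomes are built alike from desmosomal cadherins, the desmogleins and desmocollins, whose tails bind the armadillo proteins plakoglobin and the plakophilins, and desmoplakin then links this plaque to keratin. In the epidermis Dsg3, Dsc3 and Cdh3 are typical of the basal layer, while Dsg1 and Dsc1 mark the layers above it.

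Translation begins at a start codon whose neighbouring bases affect how well it is recognised, so the start codon contexts are shown for the members whose translational efficiency was highest or lowest and for the classical cadherins. Each line gives 9 bases before the start codon, the ATG in capitals and 3 bases after it, 5′ to 3′, from the GENCODE M21 transcripts on GRCm38.
Cdh1: gggtccgccATGgga
Cdh3: ccttcagttATGgag
Jup: cgggccaccATGgag
Pkp1: cccgccaccATGaac
Pkp3: cctgtcactATGcag
Dsp: accgcagacATGagc
The windows lie at chr8:106603486-106603500 (+) for Cdh1, chr8:106510950-106510964 (+) for Cdh3, chr1:135919007-135919021 (-) for Pkp1, chr7:141079861-141079875 (+) for Pkp3 and chr13:38151580-38151594 (+) for Dsp, each across the end of the 5′UTR and the start of the CDS in 1 exon. The Jup window spans a splice junction, and its ATG is at chr11:100386378-100386380 (-). The motifs ANNATGG and GNNATGG, searched at the start codon on the transcript strand only, matched 6 of the 10 members, namely Cdh1, Cdh3, Dsg2, Dsc2, Dsc3 and Jup, and not Dsg3, Pkp1, Pkp3 or Dsp. Either motif was present in 47.1% of the 9377 passing genes that had an annotated transcript.

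RNA level was measured as RPKM over exons, that is, counts divided by the counted exon length and by the exon count sum of the library. The highest RNA level among the members was that of Pkp1, with 506 RPKM in RNA-seq replicate 1 and 515 in replicate 2. The lowest was that of Dsg2, with 6.85 and 6.75 RPKM, which put 75.0-fold between the highest and the lowest mean level. Footprint level was measured as RPKM on the CDS and ranged from 8.26 for Dsg2 to 376 for Dsc3. The median member had an RNA level of 107 RPKM and a footprint level of 96.0 RPKM, beside medians of 15.3 and 19.1 RPKM over the 9862 genes that met the filters given below. Less RNA per cell and fewer cells that express a gene cannot be told apart in such bulk libraries. The replicates gave the members close RNA levels, with a log2 ratio of replicate 2 to replicate 1 between -0.15 for Dsc3 and 0.21 for Pkp3, where the SD over all passing genes was 0.20.

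**Figure D1:**
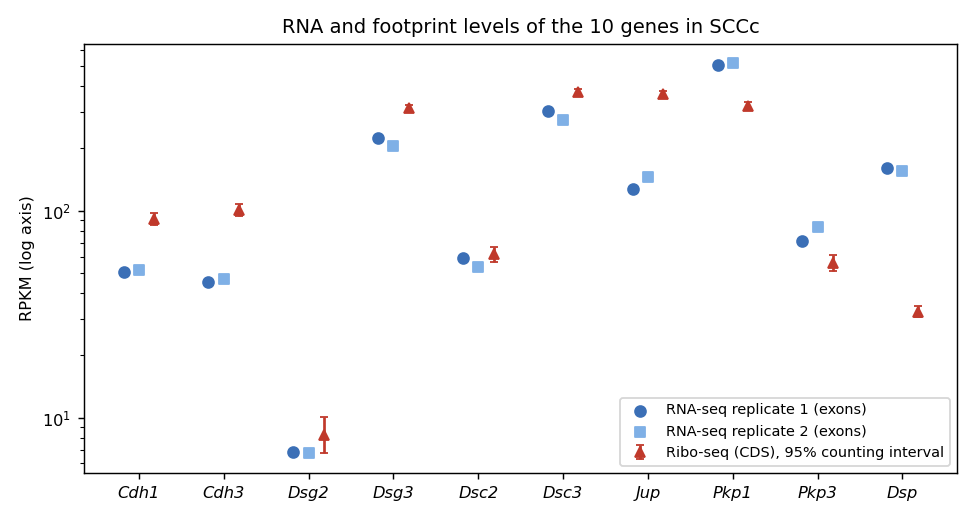
RPKM (log axis) of each gene in RNA-seq replicates 1 and 2 over exons and in Ribo-seq on the CDS, with the 95% counting interval of the footprints. Dsg2 is lowest in all 3 libraries, and the footprint level of Dsp at 32.5 RPKM lies well under its RNA levels of 161 and 156 RPKM.

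Translational efficiency (TE) was the log2 ratio of the footprint level to the mean RNA level of both replicates, with the median passing gene set to 0. To pass, a gene needed an RNA level above 1 RPKM in each replicate, a base mean above 25 and footprints on a counted CDS. All 10 members passed. Their median log2 TE was -0.01, beside 0 for all passing genes by construction. A log2 TE above 1 was found for 1 of the 10 members, Jup, beside 20.7% of all passing genes. A log2 TE below -1 was found for 2 of the 10, Pkp1 and Dsp, beside 21.1% of all passing genes. Both counts are near what the background gives. From high to low the order in this setting was Jup, Cdh3, Cdh1, Dsg3, Dsc3, Dsg2, Dsc2, Pkp3, Pkp1 and Dsp, and Dsp was the lowest under all 11 alternative settings. The calls of Jup and Pkp1 rest on narrow margins. With RNA-seq counted over the CDS their log2 TE was 0.59 and -0.65, so neither passed, and Jup fell to 0.98 with RNA-seq replicate 2 alone while Pkp1 was at -0.99 with replicate 1 alone. Jup was also under 1 with footprints on all exons. For counts not divided by length Cdh3, at 1.10, took its place above 1. Where a gene needed 100 counts or more in each library, all members that passed shifted by -0.39 alike, which put Jup under 1 and Pkp3 below -1 (-1.20).

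**Figure D2:**
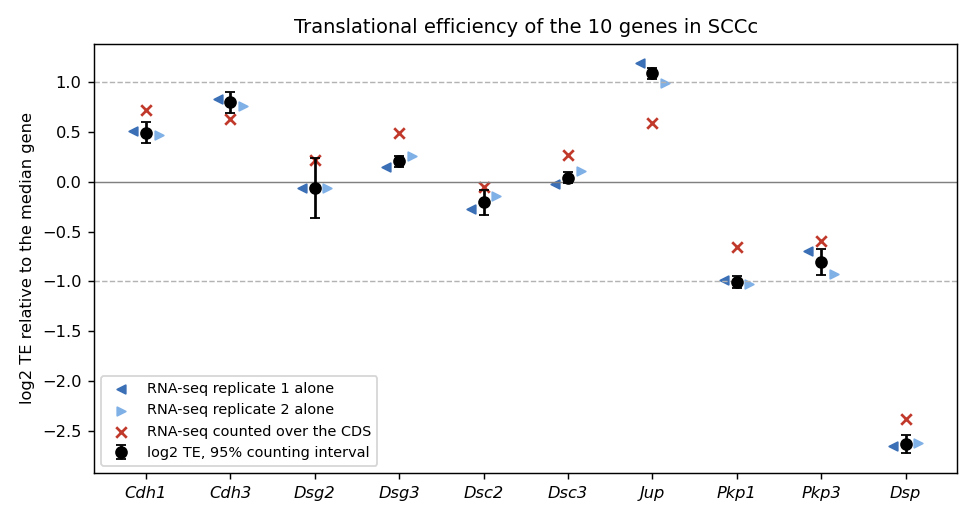
log2 TE of each gene relative to the median gene, with its 95% counting interval, the value with either RNA-seq replicate alone, and the value with RNA-seq counted over the CDS. Dashed lines mark 1 and -1. Dsp at -2.63 stands below the other 9 genes under each of these settings.

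The classical cadherins were close to each other. Cdh1, the E-cadherin of all epidermal layers, had RNA levels of 50.8 and 51.8 RPKM in the RNA-seq replicates and 858 footprints, a level of 91.1 RPKM (95% counting interval 85.1 to 97.5). Cdh3, the P-cadherin of basal keratinocytes, had RNA levels of 45.1 and 46.8 RPKM and 883 footprints, a level of 101 RPKM (94.3 to 108). Over exons Cdh1 RNA was thus slightly higher in both replicates, by 0.17 and 0.15 on the log2 scale, and its footprint level was slightly lower, with a log2 ratio of -0.15 (-0.28 to -0.01). The log2 TE was 0.49 ± 0.03 for Cdh1 and 0.79 ± 0.05 for Cdh3 (SD over the RNA-seq replicates, n = 2), a difference of -0.30 (-0.45 to -0.16). Both directions depended on the region. Over the CDS, Cdh3 RNA was higher in both replicates, at 62.3 and 64.5 RPKM beside 52.3 and 55.0 RPKM for Cdh1, and the difference in log2 TE was 0.09. Counted RNA density on the Cdh3 3′UTR was 28.0% and 28.5% of that on its CDS in the replicates, beside medians of 63.3% and 58.2% over passing genes, and for Cdh1 it was 98.7% and 88.6%. Cdh1 and Cdh3 are neighbours on chromosome 8 and lie on the same strand.

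The desmogleins differed most in RNA and footprint level among the pairs compared. Dsg3, the desmoglein of basal keratinocytes, had RNA levels of 224 and 205 RPKM and a footprint level of 312 RPKM from 3303 footprints. Dsg2, which is widespread in simple epithelia and heart, had RNA levels of 6.85 and 6.75 RPKM and a footprint level of 8.26 RPKM (6.71 to 10.1) from 98.7 footprints. Dsg3 therefore made up 97.0% and 96.8% of the summed RNA level of this pair in the replicates and 97.4% of its footprint level. The ratio of Dsg3 to Dsg2 was 31.5-fold in RNA and 37.8-fold in footprints (31.0 to 46.2). Their log2 TE of 0.20 ± 0.08 and -0.06 ± 0.0027 (SD, n = 2) differed by 0.26 (-0.04 to 0.57), which was not detectable at the depth of Dsg2. The SD over the RNA-seq replicates holds no footprint error, and the counting interval of the Dsg2 value was -0.36 to 0.24. The difference was 0.57 for counts not divided by length and 0.53 with footprints on all exons.

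The desmocollins showed the same order by a smaller margin. Dsc3, the basal desmocollin, had RNA levels of 303 and 273 RPKM and a footprint level of 376 RPKM from 3356 footprints, the highest level among the members on the CDS. With footprints on all exons Dsg3 was higher, at 234 RPKM beside 189 for Dsc3. Dsc2 had RNA levels of 59.0 and 53.3 RPKM and a footprint level of 61.7 RPKM from 557 footprints. Dsc3 held 83.7% of the summed RNA level of the pair in each replicate and 85.9% of its footprint level. The ratio of Dsc3 to Dsc2 was 5.13-fold in RNA and 6.09-fold in footprints (5.57 to 6.66). The log2 TE was 0.04 ± 0.09 for Dsc3 and -0.21 ± 0.09 for Dsc2 (SD, n = 2), and the difference of 0.25 (0.11 to 0.38) was above the counting error but had the opposite sign for counts not divided by length and for footprints on all exons. These desmogleins and desmocollins all lie in a cluster on chromosome 18. Their counted CDS covered between 91.4% for Dsc2 and 97.6% for Dsg2 of the annotated CDS.

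Among the armadillo proteins, plakoglobin had a higher TE than Pkp1 and Pkp3. Jup, which takes part in adherens junctions and desmosomes, had RNA levels of 127 and 145 RPKM and a footprint level of 365 RPKM (352 to 379) from 2899 footprints. Its log2 TE of 1.08 ± 0.14 (SD, n = 2) lay at the 81.1 percentile of passing genes. It was the highest of the members in the main setting, but Cdh1 and Cdh3 were above it with RNA-seq counted over the CDS, and Cdh3 was with footprints on all exons or counts not divided by length. RNA density in the replicates was 54.9 and 59.4 RPKM on its counted 3′UTR and 219 and 251 RPKM on its CDS. Pkp1, the plakophilin of the differentiated epidermis, combined the highest RNA level, at the 99.1 percentile, with a footprint level of 322 RPKM (310 to 335) from 2499 footprints. Its log2 TE was -1.01 ± 0.03 (SD, n = 2). Pkp3 had RNA levels of 71.7 and 83.1 RPKM, a footprint level of 56.1 RPKM from 498 footprints and a log2 TE of -0.81 ± 0.16 (SD, n = 2), which moved to -0.08 for counts not divided by length and -0.16 with footprints on all exons. Pkp1 exceeded Pkp3 by 6.59-fold in RNA and 5.75-fold in footprints (5.22 to 6.33).

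Dsp had few footprints relative to its RNA. Its RNA levels of 161 and 156 RPKM placed it at the 96.1 percentile of passing genes, while its footprint level of 32.5 RPKM (30.5 to 34.6), from 997 footprints, placed it at the 63.2 percentile. Its log2 TE was -2.63 ± 0.02 (SD, n = 2; counting interval -2.72 to -2.54), the 3.66 percentile. With RNA-seq counted over the CDS it was -2.38, the 4.11 percentile, and it moved to -1.77 for counts not divided by length and -1.88 with footprints on all exons. Jup and Dsp, partners in the same plaque, had RNA levels within a log2 ratio of -0.34 and -0.11 in the replicates, but the footprint level of Jup was 11.3-fold higher (10.5 to 12.1). Over the CDS the RNA order turned, with 219 and 251 RPKM for Jup and 165 and 161 RPKM for Dsp, and the difference in log2 TE went from 3.71 to 2.96. It was 2.70 for counts not divided by length and 2.67 with footprints on all exons. Of the 388 passing genes whose RNA level was at least that of Dsp, itself included, 2 had a lower footprint level and 6 a lower log2 TE. The summed RNA level of the 4 desmosomal cadherins was 3.68 and 3.45 times that of Dsp in the replicates, and their summed footprint level was 23.3 times that of Dsp.

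**Figure D3:**
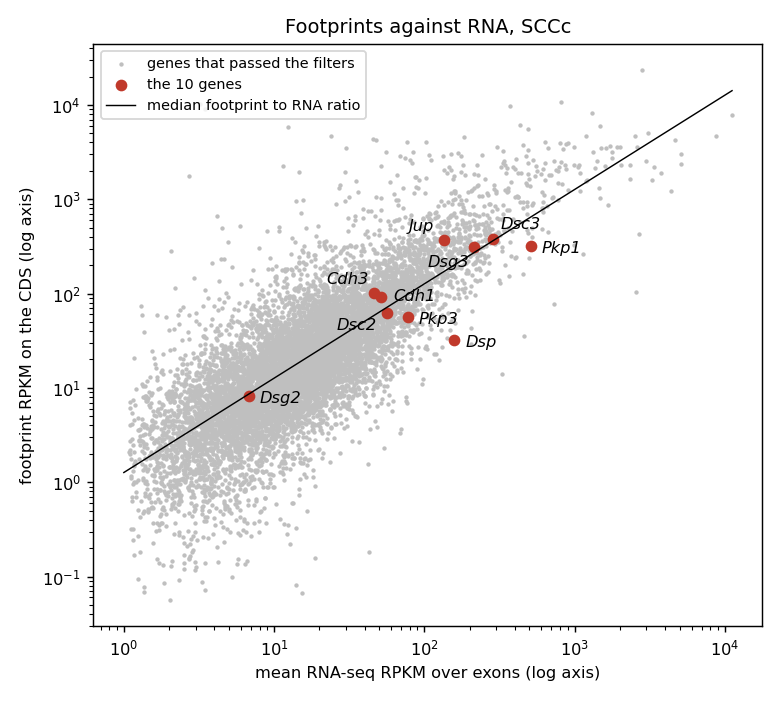
Footprint RPKM on the CDS against mean RNA-seq RPKM over exons (log axes) for the 9862 genes that passed, with the 10 genes in red and a line at the median ratio. Jup, at 136 RPKM of RNA, lies above the line and Dsp, at 159 RPKM, far below it.

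Desmoplakin belongs to the plakins, large proteins that connect junctions and matrix contacts to the cytoskeleton, and its counted CDS of 8645 nt was the longest of the members. Of 5 other plakins, all passed and 4 had a log2 TE below -1, beside 21.1% of all passing genes. Dst, a plakin of the hemidesmosome, was at -2.75, Ppl (periplakin) at -2.36, Macf1 at -1.90, Plec (plectin) at -1.52 and Evpl (envoplakin) at -0.15, or 0.11 with RNA-seq counted over the CDS. Low values were common among long coding sequences in general. The 422 passing genes with more than 5000 nt of counted CDS had a median log2 TE of -0.93, and 48.1% of them were below -1, where the 9440 shorter genes had a median of 0.04. Among those 422, Dsp ranked number 24 from the lowest. The part of coding length in the Dsp value was not tested.

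**Figure D4:**
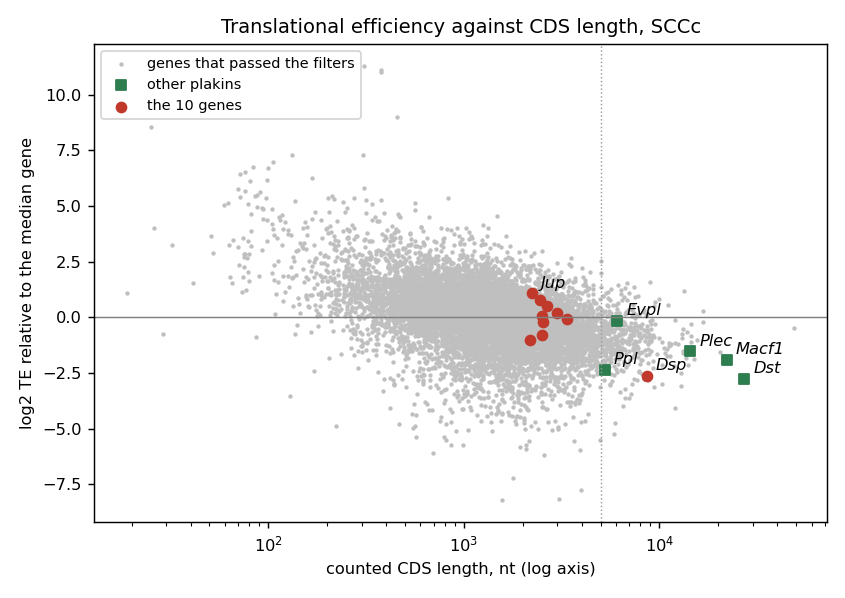
log2 TE against counted CDS length (log axis) for the 9862 genes that passed, the 10 genes in red and 5 other plakins as green squares, with a dotted line at 5000 nt. Dsp, Dst and Ppl lie below -2, Macf1 and Plec between -2 and -1, and Evpl near 0.

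Footprint density on the counted 5′UTR was compared with that on the CDS for each member. Dsp had 47.9 footprints on 295 nt of 5′UTR, a density of 45.8 RPKM and a log2 ratio to the CDS of 0.49 (0.08 to 0.91). RNA density on the same 5′UTR was 3.98% and 10.4% of that on the CDS in the replicates. For the other members this share ran from 0% (Dsg2) to 141% (Dsg3) in replicate 1. In replicate 2 it ran from 14.0% (Dsg2) to 123% (Dsg3). The footprint ratio is given without a value over all passing genes, so how unusual that of Dsp is cannot be read from it. The footprint ratio and its interval were below 0 for Cdh3 at -2.38 (-3.42 to -1.33), Dsc3 at -2.23 (-2.63 to -1.82), Dsc2 at -2.04 (-2.82 to -1.26), Jup at -1.38 (-1.70 to -1.06), Cdh1 at -1.36 (-2.07 to -0.65) and Dsg3 at -1.04 (-1.50 to -0.58). For Dsg2, Pkp1 and Pkp3 the interval included 0, with 3, 10.4 and 30.3 footprints on the 5′UTR. The counted Pkp1 5′UTR was 12 nt, beside 195 nt in its annotated main transcript, so its ratio covers little of that 5′UTR. On the 3′UTR footprint density was at most 6.08% of that on the CDS, for Pkp3, and at least 0.347%, for Jup. The median over 9857 passing genes was 1.56%, and the Pkp3 value rests on 4.16 footprints on 344 nt.

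The annotated main transcripts of Dsc2, Pkp1, Pkp3 and Dsp hold an ATG upstream of the start codon, 4 of the 10 members, beside 51.5% of the passing genes with an annotated transcript. In Dsp the first of these lies 40 nt before the start codon and opens a frame that ends within the 5′UTR, while in Pkp3 the frame runs into the CDS. A second annotated Pkp1 transcript has 0 upstream ATGs. The 4 members with an upstream ATG had log2 TE between -2.63 and -0.21, and the 6 without had values between -0.06 and 1.08. These ranges overlapped in other settings. For counts not divided by length Dsc2 was at 0.009 and Dsc3, which has no upstream ATG, at -0.035. With footprints on all exons they were at -0.10 and -0.12. Over the 9377 passing genes with an annotated transcript the medians were -0.23 with and 0.22 without an upstream ATG. The SD of log2 TE over all 9862 passing genes was 1.45, which is large beside the gap between these medians. For the start codon motifs the medians were 0.08 with and -0.08 without. The members ranged from -0.21 to 1.08 with a motif and from -2.63 to 0.20 without. Which transcript the cells used was not measured here, and the part of these features in the values was not tested.

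Other desmosomal genes were mostly low. Dsg4 had 0 footprints, for which 3 counts are the upper limit, and 2.00 and 7.17 RNA-seq counts. Dsc1, of the upper epidermis, had 8.84 footprints and RNA levels of 0.0931 and 0.152 RPKM. Dsg1a, Dsg1b and Dsg1c, near-identical copies between which reads cannot be placed with certainty, had mean RNA levels of 0.189, 0.936 and 0.0303 RPKM, with 31.5%, 33.7% and 42.7% of their annotated CDS counted. Perp, a membrane protein of desmosomes, was abundant, with RNA levels of 778 and 774 RPKM and a footprint level of 990 RPKM (log2 TE 0.01). The plakophilin Pkp2 passed too, with a log2 TE of 0.78, or 0.96 with RNA-seq counted over the CDS, where Jup was at 0.59. Pkp4 was at -1.66. Of this list, 3 of 8 genes passed.

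Of 13 partners of the classical cadherins 12 passed, 0 with log2 TE above 1 and 2 below -1, beside 20.7% and 21.1% of all passing genes, and Ctnna2 had 0 counts in all 3 libraries. Ctnnb1 (β-catenin) had RNA levels of 250 and 242 RPKM and a log2 TE of -0.54, Ctnna1 (α-catenin) 247 and 228 RPKM and 0.04, and Ctnnd1 (p120-catenin) 92.3 and 93.4 RPKM and 0.14. The highest TE were those of Baiap2 (0.28), Cbll1 (0.24) and Vcl (0.16), and the lowest those of Arvcf (-1.22), Magi1 (-1.18) and Ablim1 (-0.83). With RNA-seq counted over the CDS, Baiap2 (-0.20) and Cbll1 (-0.01) changed sign, Ablim1 was at -0.05, and Vcl (0.47), Ctnnd1 (0.44) and Ctnna1 (0.24) were the highest. Of 14 other cadherins 4 passed, namely Fat1 (-0.65), Fat2 (-0.93), Celsr1 (-1.50) and Cdh13 (-1.55). Cdh2 (N-cadherin), named after its values were seen, had 76.0 footprints but 7 and 18.9 RNA-seq counts, too few to pass. Cdh1 exceeded it 11.6-fold in footprint level and 238-fold in mean RNA level.

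The nectins, immunoglobulin-like adhesion proteins of adherens junctions, were listed with Pvr and Cadm1, and 5 of 6 passed. Pvr was above 1 (1.41), Cadm1 was at 0.44 but at -0.17 with RNA-seq counted over the CDS, Nectin1 at 0.22, Nectin2 at 0.22 and Nectin4 at -0.60, and Nectin3 had 2.00 footprints. Of 17 tight junction genes 12 passed, 4 above 1 and 1 below -1, beside 20.7% and 21.1% of all passing genes. With RNA-seq counted over the CDS, 6 were above 1, with Marveld2 (1.21) and Marveld3 (1.13) added, and 0 below -1. In that setting 18.3% of all passing genes were above 1 and 19.5% below -1. Cldn7 was highest (3.26), followed by Cldn3 (1.96) and Ocln (1.27), and Cgn was lowest (-1.13 ± 0.21, SD over the RNA-seq replicates, n = 2). Tjp1 had a log2 TE of -0.41. Cldn1, F11r and Cldn4 had the highest mean RNA levels of that list, with 88.7, 88.7 and 83.8 RPKM. Cldn4 was the other gene above 1 (1.07 ± 0.28, SD, n = 2). For Cldn4 and Cgn the margin past the limit was smaller than the SD, which holds no footprint error. The standard error (SE) of log2 TE from counting was 0.07 for Cldn4, 0.20 for Cgn, 0.17 for Ocln and 0.21 for Pvr. For each of these genes the margin was under 2 SE. It was larger for Cldn3 (SE 0.26) and Cldn7 (SE 0.14). Among 6 repressors of E-cadherin transcription, Snai2 was the most abundant with RNA levels of 91.6 and 91.1 RPKM (log2 TE -0.57). Twist1 and Twist2 passed with 0.56 and 1.24, and Snai1, Zeb1 and Zeb2 had 0 footprints.

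Marker genes were read in the same libraries. Basal keratinocyte markers were very high, with 6 of 6 passing and summed RNA levels of 14347 and 16466 RPKM, led by Krt5 with a mean of 8724 RPKM. Their log2 TE was -1.25 for Krt5, -1.09 for Krt14, -1.95 for Col17a1, -0.29 for Itgb4, -0.18 for Trp63 and -0.08 for Itga6. With RNA-seq counted over the CDS, Krt14 was at -0.92, Trp63 at 0.05 and Itga6 at 0.18. Of the differentiated keratinocyte markers 3 of 4 passed, led by Ivl with 104 RPKM (log2 TE -0.85), with Krt1 at 0.52 and Krt10 at -2.95, while Lor had 0 footprints, and Flg was not analysed here. The value of Krt10 rests on 7 footprints and was -2.20 with RNA-seq counted over the CDS. Simple epithelium markers had summed RNA levels of 66.1 and 61.2 RPKM beside a summed footprint level of 384 RPKM, and Krt8, Krt18 and Epcam had log2 TE of 4.54, 3.66 and 1.83. The 8 fibroblast markers had 519 and 1085 summed RNA-seq counts and 10.0 footprints. Of these, Pdgfra held the footprints, with a footprint level of 0.870 RPKM beside a mean RNA level of 0.344 RPKM, and 7 had 0, namely Col1a1, Col1a2, Col3a1, Pdgfrb, Dcn, Lum and Thy1. Col3a1 had the highest RNA level, with a mean of 4.69 RPKM. Melanocyte, immune and endothelial markers had summed RNA levels of 5.46, 0.169 and 0.505 RPKM in replicate 1 and 5.52, 0.242 and 0.591 RPKM in replicate 2, led by Pmel, Ptprc and Kdr, with 2.00, 0 and 13.0 footprints in sum. Dct, Mlana, Tyr, Tyrp1, Adgre1, Pecam1 and Cdh5 had 0 footprints, and Cd3e and Cd207 had 0 counts in all 3 libraries. The Ribo-seq and RNA-seq libraries thus differed in some markers. The labels do not say whether these libraries came from the same cultures, and the part of the marker differences in the TE values was not tested.

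Hras had RNA levels of 48.5 and 50.9 RPKM and a log2 TE of 0.02, and Tgfbr2 had 61.4 and 59.0 RPKM and -1.32. With RNA-seq counted over the CDS the order turned, to -1.05 for Hras and -0.62 for Tgfbr2. Counts summed over a gene show neither a base change nor a deleted exon, so these values do not check the genotype.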

How the data were processed

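The SCCc files used here hold 1 Ribo-seq and 2 RNA-seq libraries. Per the study's methods the authors aligned reads to GRCm38 with STAR 2.6.1, removed ribosomal, mitochondrial and tRNA reads from Ribo-seq with Bowtie2 2.4.1, and counted with Plastid. The deposited values are estimated counts, which need not be whole, and RPKM for exons, CDS and UTRs. The other deposited columns are the counted lengths. RPKM was recomputed here from the counts, the lengths and the exon count sum of each library (Python 3.11.15, numpy 2.4.6, pandas 2.3.3, scipy 1.17.1). Base means used DESeq2 1.42.0 size factors or, as an alternative, edgeR 4.0.16 factors, on counts rounded to whole numbers. The main transcript was the GENCODE principal one, then that with the longest CDS. With 1 condition there was no test and no p-value. Intervals are 95% and cover counting error only, since PCR copies are not independent molecules. The calculation was tested on simulated data. All members, every gene of lists of up to 8 genes, and of longer lists the 3 with the highest and the 3 with the lowest TE and the 3 with the highest RNA level were named, except 1 gene that is not reported here. Members and lists were chosen with earlier results of these data known, and the comparisons by CDS length and start context after values were seen. The comparison by upstream ATG was not among the planned ones either. The 3 long-read libraries were not used here.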

Additional observations from a re-analysis of the deposited data

How the results depend on the processing

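All 10 members passed under each of the 11 alternatives except that with at least 100 counts in every library, where Dsg2 dropped out and 9 passed. The median log2 TE of the members lay between -0.05 and 0.02 with either RNA-seq replicate left out. It moved to 0.24 with RNA-seq counted over the CDS, 0.10 for counts not divided by length, -0.35 with at least 100 counts in every library, and 0.047 where 80% or more of a gene's annotated CDS had to be counted, a setting chosen after seeing the data. The number of members above 1 lay between 0 and 1 with a replicate left out. Without replicates 1 and 2, 21.1% and 20.6% of all passing genes were above 1. The number of members above 1 was 0 with RNA-seq over the CDS, with at least 100 counts and with footprints on all exons. In these settings 18.3%, 18.8% and 17.96% of all passing genes were above 1. The number below -1 lay between 1 and 2 with a replicate left out, beside 21.2% and 20.9% of all passing genes without replicates 1 and 2. It was 1 with RNA-seq over the CDS, with a pseudocount of 1 RPKM and with at least 80% of the CDS counted. The shares of all passing genes there were 19.5%, 18.5% and 20.8%. With at least 100 counts it was 3 of 9, beside 15.7% of all passing genes. Filters alone move only the reference median, so the setting with at least 100 counts shifted the 9 members by -0.39 alike, and that on the annotated CDS shifted all 10 by 0.057 alike. The cause of the other shifts was not tested. Cdh1, Cdh3, Jup, Pkp1, Pkp3 and Dsp kept their sign under every alternative, and log2 TE of Dsp ranged from -3.02 to -1.77. Dsg2, Dsg3, Dsc2 and Dsc3, all near 0, changed sign under 3, 1, 1 and 4 alternatives, of which the change of Dsg3 and 1 of those of Dsc3 came with the common shift of -0.39. The single Ribo-seq library limits every TE, and 3 counts on 1000 nt correspond to 0.845 RPKM in it. No paired analysis was possible because just 1 condition was profiled in them.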
